A study of Homo sapiens with 18 samples.

Results

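Genes of epithelial cell junctions and genes of the epithelial-mesenchymal transition (EMT) were compared between ZR751shMLL3 and ZR751shLucif cells. The set held 10 genes of the 23500 entries in the RNA-seq table, chosen by name from their known roles: CDH1, EPCAM, CLDN3, CLDN4, CLDN7 and OCLN as 6 epithelial genes, and VIM, CDH2, ZEB1 and SNAI2 as 4 mesenchymal genes. Each was found as the entry whose RefSeq accessions map to that symbol, and each had 1 entry. The cells are from ZR751 (ZR75-1), an established estrogen receptor positive (ER+) line of human breast cancer. In ZR751shMLL3 a short hairpin RNA from a lentivirus targets MLL3, the H3K4 methyltransferase whose gene symbol is KMT2C, and in ZR751shLucif the hairpin targets luciferase and serves as the control. Both lines were transduced stably, sorted for green fluorescent protein, grown in RPMI medium with serum and insulin, and used at early passages with no further treatment. A single MLL3 hairpin was used, so an effect of that hairpin sequence cannot be told apart from an effect of MLL3. RNA-seq and ChIP-seq for H3K4me1, ERα and SP1 were each done in 2 libraries per cell line, described as biological replicates, and p-values measure only the spread between those libraries.

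Epithelial cells adhere through adherens junctions, in which E-cadherin binds the same molecule on the next cell, and are sealed by tight junctions, in which claudins and occludin form strands. In EMT, transcription factors such as ZEB1 and the SNAIL family bind E-box motifs at epithelial genes and repress them, while N-cadherin and the intermediate filament vimentin appear. H3K4me1 is a histone mark of enhancers and of the flanks of promoters, deposited largely by MLL3 and the related MLL4. ERα and SP1 are DNA-binding transcription factors.

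The promoters of the 3 claudin genes, which SP1 peaks are compared at, and of vimentin are shown with the motifs of these factors. They come from RefSeq on GRCh38.p14, run from 250 bases before to 50 bases after the gene's start, and were placed on GRCh37, the build of the peak lists, by exact match. Of the 10 genes, 7 had an entry, and CDH1, EPCAM and SNAI2 had none. Capitals mark the E-box CAGGTG or its reverse complement CACCTG, and the GC box GGGCGG or its reverse complement CCGCCC, searched on both strands. CLDN3 has its promoter on the minus strand at chr7:73184551-73184850, CLDN4 on the plus strand at chr7:73245076-73245375, CLDN7 (the downstream of its 2 starts, chosen because it holds the motifs) on the minus strand at chr17:7165748-7166047 and VIM on the plus strand at chr10:17269990-17270289.
CLDN3: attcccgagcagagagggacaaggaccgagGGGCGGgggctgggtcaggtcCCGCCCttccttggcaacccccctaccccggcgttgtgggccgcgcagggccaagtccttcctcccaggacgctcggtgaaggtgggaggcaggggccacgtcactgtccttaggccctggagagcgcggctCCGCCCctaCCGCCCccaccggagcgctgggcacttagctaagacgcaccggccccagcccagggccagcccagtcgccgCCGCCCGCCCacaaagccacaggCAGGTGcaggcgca
CLDN4: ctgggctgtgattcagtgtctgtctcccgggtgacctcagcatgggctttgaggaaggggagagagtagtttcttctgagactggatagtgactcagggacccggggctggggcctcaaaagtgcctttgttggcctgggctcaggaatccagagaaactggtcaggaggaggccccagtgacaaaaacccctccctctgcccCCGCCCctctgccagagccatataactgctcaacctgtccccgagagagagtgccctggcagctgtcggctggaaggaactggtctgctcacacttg
CLDN7: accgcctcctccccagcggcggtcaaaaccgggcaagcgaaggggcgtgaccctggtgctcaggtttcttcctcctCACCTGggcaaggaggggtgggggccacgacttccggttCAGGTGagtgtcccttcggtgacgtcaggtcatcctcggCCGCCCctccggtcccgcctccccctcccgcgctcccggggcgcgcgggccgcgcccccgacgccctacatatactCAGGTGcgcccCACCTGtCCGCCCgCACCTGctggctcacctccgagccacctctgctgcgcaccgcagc
VIM: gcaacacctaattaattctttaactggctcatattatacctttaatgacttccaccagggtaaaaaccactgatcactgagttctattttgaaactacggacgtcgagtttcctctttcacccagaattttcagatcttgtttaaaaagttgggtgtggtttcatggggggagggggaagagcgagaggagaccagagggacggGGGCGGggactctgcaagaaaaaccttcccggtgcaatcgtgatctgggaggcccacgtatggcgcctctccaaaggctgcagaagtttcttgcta
The CLDN3 window held 6 GC boxes, of which the pair at bases 14 and 18 after the start overlaps, and 1 E-box at base 37. The CLDN4 window held 1 GC box and no E-box of these letters. The downstream CLDN7 window held 5 E-boxes and 2 GC boxes, and the upstream one held neither. VIM had 1 GC box, 46 bases before the start. Both OCLN windows held E-boxes, with 1 and 2. Of the 7 ZEB1 windows, 2 held E-boxes, with 1 and 3, and 5 held GC boxes. Neither of the 2 CDH2 windows held an E-box, and 1 held a GC box. Of 35116 promoters in the table, 20.6% held at least 1 E-box of these letters and 45.0% at least 1 GC box, so each motif is common. A match describes the letters only.

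The libraries were luminal by their markers. KRT8, a keratin of luminal epithelium, ranged from 1652 to 4573 FPKM over the 4 libraries, GATA3 from 140 to 259 and ESR1 from 10.8 to 14.2. Basal and myoepithelial markers were all below 1 FPKM, with KRT5 at 0.0394 or less. Of 7 fibroblast markers, 6 were below 0.21 FPKM, with THY1 listed at 0 in all libraries, and COL1A1 was at 13.1 to 17.8 FPKM. Of 3 blood markers, PTPRC and CD3E were below 0.04 FPKM and CD68 stood at 7.66 to 13.9. The RNA-seq library of ZR751shLucif replicate 1 stood apart. Across the 11134 genes with a mean log2(FPKM + 0.5) above 1, its correlation with each of the other 3 was 0.900 to 0.907, while among those 3 it was 0.947 to 0.969. Log2 fold changes also moved with transcript GC content, with a Spearman correlation of 0.522 across those genes, which are not independent replicates. Over all genes tested, the median of the log2 fold changes was −0.10. The read depth behind single genes is unknown from FPKM.

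The targeted gene, KMT2C, was at 2.34 and 6.77 FPKM in ZR751shLucif replicates 1 and 2, and at 1.07 and 2.69 FPKM in ZR751shMLL3 replicates 1 and 2. Its ranges overlapped, since ZR751shMLL3 replicate 2 lay above ZR751shLucif replicate 1. The log2 fold change was −1.02 ± 0.544 (SE), with a 95% interval from −2.34 to 0.29 and an adjusted p of 0.629 (limma with Benjamini-Hochberg adjustment over the 11134 genes). It ran from −1.70 to −0.35 when either control library was left out. The difference in KMT2C mRNA was not larger than the spread between these libraries. The authors checked the knockdown separately by qPCR and report a difference there, which was not examined here.

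The 6 epithelial genes were abundant in both cell lines, and none of them changed past the threshold. E-cadherin, 3 claudins and EpCAM stood at percentiles 97.4 to 98.8 of all entries by mean level, and all 6 genes stayed above 12 FPKM in ZR751shMLL3 cells. Of the 6, 0 had an adjusted p below 0.05 with limma and 0 an unadjusted p below 0.05. Across all genes tested, limma called 0% higher and 0.00898% lower, and at an unadjusted p of 0.05 it called 3.67% and 4.31%. The only gene called, SNORD104, a small nucleolar RNA named after its value was seen, is no member of the set. Both ZR751shMLL3 libraries lay above both ZR751shLucif libraries for 3 of the 6 genes and below them for 1. Of all genes tested, 17.6% lay above and 25.3% below in the same way.

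**Figure D1:**
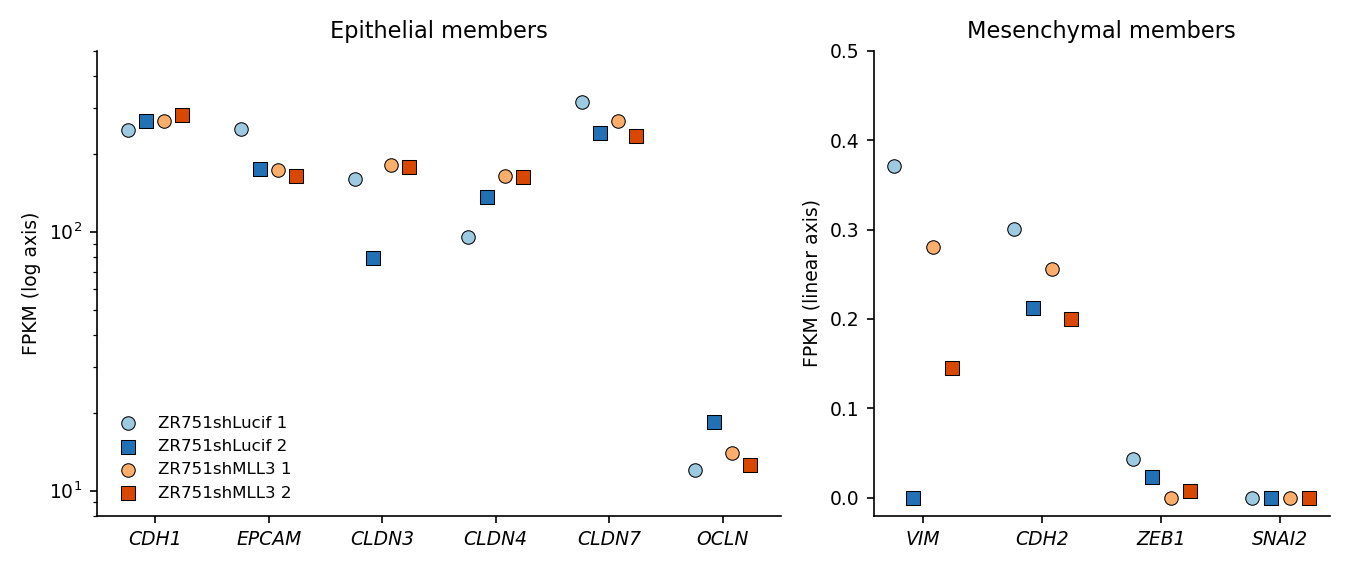
Level of each gene in FPKM, on a log axis for the 6 epithelial genes (left) and on a linear axis for the 4 mesenchymal genes (right), with 1 point per library. All epithelial genes lie above 10 FPKM in every library, and all mesenchymal genes below 0.4 FPKM.

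CDH1, the E-cadherin gene (NM_004360), lies on GRCh37 at chr16:68771195-68869440 on the plus strand. Its level was 247 and 267 FPKM in ZR751shLucif replicates 1 and 2, and 268 and 283 FPKM in ZR751shMLL3. Both ZR751shMLL3 libraries were the higher ones, by less than 1 FPKM at the closest pair. Means were 257 ± 14.1 FPKM in ZR751shLucif and 276 ± 10.6 FPKM in ZR751shMLL3 (SD, n = 2 each). The log2 fold change was 0.10 ± 0.261 (SE, adjusted p = 0.906 with limma). The 95% interval, from 0.692-fold to 1.66-fold, excludes a 2-fold change in either direction. Leaving out either control library gave 0.04 and 0.16.

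EPCAM, an adhesion molecule of epithelial cell surfaces (NM_002354, chr2:47572297-47614740, plus strand), had 249.9 and 174.8 FPKM in ZR751shLucif, against 173.5 and 164.7 FPKM in ZR751shMLL3. Both ZR751shMLL3 libraries were lower, but ZR751shLucif replicate 2 lay within 2 FPKM of the nearer one. The log2 fold change was −0.31 ± 0.297 (SE, adjusted p = 0.745 with limma). It depended on the library that stood apart: without ZR751shLucif replicate 1 it was −0.05, and without replicate 2 it was −0.56.

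CLDN3, a claudin of tight junction strands (NM_001306, chr7:73183327-73184600, minus strand), had 159.6 and 79.3 FPKM in ZR751shLucif, against 180.5 and 177.1 FPKM in ZR751shMLL3. The knockdown libraries lay close together, and the control libraries differed from each other by more than control replicate 1 differed from either knockdown library. The log2 fold change of 0.67 ± 0.383 (SE) was the highest of the 6 (adjusted p = 0.642 with limma), with a 95% interval from −0.26 to 1.59. Without ZR751shLucif replicate 1 it was 1.17, and without replicate 2 it was 0.16. The CLDN3 transcript has the highest GC content of the 10, at 69.2%, and with the GC trend of each library removed the log2 fold change was 0.27.

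CLDN4 (NM_001305, chr7:73213872-73247020, plus strand), a claudin gene next to CLDN3, had 95.3 and 135.7 FPKM in ZR751shLucif replicates 1 and 2, against 164.7 and 162.0 FPKM in ZR751shMLL3. Every ZR751shMLL3 library was above every control library. Means were 115 ± 28.6 and 163 ± 1.91 FPKM (SD, n = 2 each), a log2 fold change of 0.52 ± 0.296 (SE, adjusted p = 0.641 with limma) with a 95% interval from −0.19 to 1.24. Without either control library it was 0.27 and 0.77.

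CLDN7 (chr17:7163222-7167302, minus strand), a further claudin, had 317.7 and 239.9 FPKM in ZR751shLucif, against 267.1 and 233.6 FPKM in ZR751shMLL3. The groups overlapped, and the log2 fold change was −0.14 ± 0.288 (SE, adjusted p = 0.874 with limma). OCLN (chr5:68788119-68853931, plus strand), which encodes occludin, a transmembrane protein of tight junctions, had 11.99 and 18.4 FPKM in ZR751shLucif replicates 1 and 2, against 13.9 and 12.6 FPKM in ZR751shMLL3. It was the lowest of the epithelial genes per transcript length, and its groups overlapped. Its log2 fold change was −0.16 ± 0.312 (SE, adjusted p = 0.869 with limma). The sign of OCLN turned to 0.14 without ZR751shLucif replicate 2 and to 0.17 with the GC trend removed, and that of CLDN7 turned to 0.06 without ZR751shLucif replicate 1.

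By mean level over the libraries of each line, the order in ZR751shLucif was CLDN7, CDH1, EPCAM, CLDN3, CLDN4 and OCLN. In ZR751shMLL3 it was CDH1, CLDN7, CLDN3, EPCAM, CLDN4 and OCLN. In ZR751shLucif the ranges of CLDN7, CDH1 and EPCAM overlapped from neighbour to neighbour, as did those of CLDN3 and CLDN4, while EPCAM lay apart from CLDN3 and OCLN from CLDN4. In ZR751shMLL3 the ranges of neighbours did not overlap except those of EPCAM and CLDN4, which met at 164.7 FPKM.

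**Figure D2:**
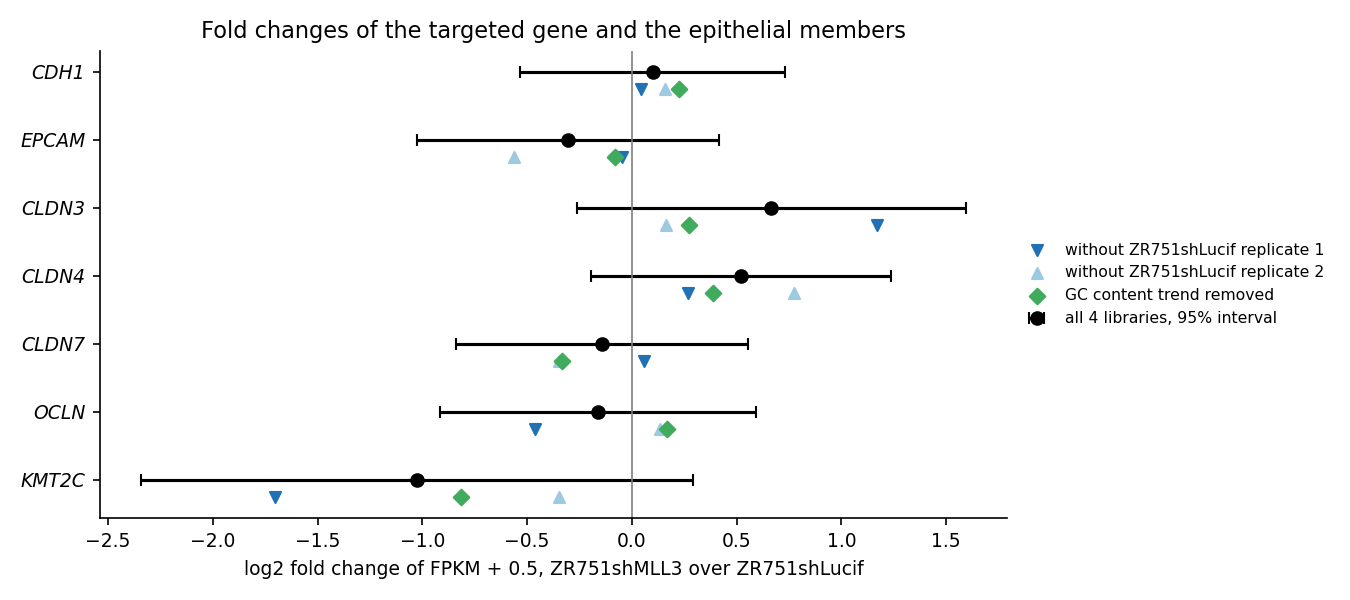
Log2 fold change of FPKM + 0.5 (ZR751shMLL3 over ZR751shLucif) of the 6 epithelial genes and KMT2C, with 95% intervals from limma (black), and the same without either control library or with the GC trend removed (coloured). Every interval includes 0, and CLDN3 moves from 0.16 to 1.17 with the control library left out.

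The 4 mesenchymal genes were at or near 0 in both cell lines, so the low-value filter removed all of them from the test. Without that filter their adjusted p ran from 0.647 for ZEB1 to 1 with limma. VIM, which encodes vimentin (chr10:17270240-17279592, plus strand), was at 0.372 FPKM and listed at 0 in ZR751shLucif, and at 0.281 and 0.145 FPKM in ZR751shMLL3. CDH2, the N-cadherin gene (chr18:25512843-25757910, minus strand), had 0.3002 and 0.212 FPKM in ZR751shLucif replicates 1 and 2, against 0.256 and 0.200 FPKM in ZR751shMLL3. Both showed overlapping groups. ZEB1, a zinc finger repressor of CDH1 (chr10:31607424-31818742, plus strand), was at 0.0434 and 0.0238 FPKM in ZR751shLucif, and in ZR751shMLL3 it was listed at 0 and at 0.00776 FPKM. SNAI2, a SNAIL family repressor on chromosome 8 (49830157 to 49834299, minus strand), was listed at 0 in all 4 libraries. The highest mesenchymal value, 0.372 FPKM, lay below the lowest epithelial value, 11.99 FPKM, and no mesenchymal gene reached 0.3 FPKM in ZR751shMLL3. Differences at so low a level were not detectable.

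Other genes of junctions and EMT were read from 5 lists. The adherens junction list had 10 of 11 genes past the filter. Among these were 0 called in either direction at an adjusted p of 0.05, 4 positive and 6 negative log2 fold changes, and a median of −0.06. NECTIN4, a nectin adhesion molecule, had the highest, 0.80, from 15.0 and 22.5 FPKM in ZR751shLucif to 32.8 and 31.7 FPKM in ZR751shMLL3 (adjusted p = 0.605 with limma). NECTIN2 was at 0.53. AFDN, the nectin-binding scaffold afadin, was at −0.31, and CTNND1, the p120 catenin that binds cadherin tails, at −0.29. CTNND1 was −0.03 and −0.55 without ZR751shLucif replicate 1 and 2, and 0.02 with the GC trend removed, where NECTIN2 was 0.32 and AFDN −0.18. NECTIN4 was 0.51 and 1.08 without ZR751shLucif replicate 1 and 2.

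The tight junction list had 17 of 18 genes past the filter, with 0 called, 7 positive and 10 negative, and a median of −0.10, that of all genes tested. CLDN1, a claudin, was lowest at −1.17, from 33.6 and 18.0 FPKM in ZR751shLucif to 8.50 and 13.5 FPKM in ZR751shMLL3 (adjusted p = 0.599 with limma), while CLDN3 and CLDN4 were above 0. The log2 fold change of CLDN1 was −0.72 and −1.61 without ZR751shLucif replicate 1 and 2. CGN, the cytoplasmic plaque protein cingulin, was at −0.59. PARD6A and CRB3, of the polarity complexes at the apical junction, were at 0.57 and 0.56, and at 0.31 and 0.34 with the GC trend removed.

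The desmosome list had 8 of 11 genes past the filter, with 0 called, 4 positive and 4 negative, and a median of −0.08. PKP3, a plakophilin of the desmosomal plaque, had 15.9 and 18.2 FPKM in ZR751shLucif, against 35.0 and 33.9 FPKM in ZR751shMLL3. These groups lay apart, with a log2 fold change of 1.00 ± 0.264 (SE, adjusted p = 0.490 with limma). It was 0.90 and 1.09 without ZR751shLucif replicate 1 and 2. EVPL, envoplakin, was at 0.71, DSC2, a desmosomal cadherin, at −0.50, and PKP2 at −0.33. DSC2 was −0.90 and −0.10 without ZR751shLucif replicate 1 and 2. With the GC trend removed, PKP3 was 0.65, EVPL 0.40, DSC2 −0.15 and PKP2 −0.16.

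All 23 genes of epithelial regulators and surface proteins passed the filter, with 0 called, 14 positive and 9 negative, and a median of 0.10. The membrane protease gene ST14 was at 0.74 and its inhibitor SPINT1 at 0.76. CDS1, an enzyme of phospholipid synthesis, was at −0.61, and EHF, an epithelial ETS factor, at −0.38. Without ZR751shLucif replicate 2, ST14 was 0.44, and with the GC trend removed, ST14 was 0.49, SPINT1 0.56, CDS1 −0.31 and EHF −0.07.

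Of the EMT and mesenchymal list, 12 of 38 genes passed the filter, with 0 called, 7 positive and 5 negative, and a median of 0.12. CD44, a hyaluronan receptor, had the lowest log2 fold change, −1.53 ± 0.330 (SE), and did not pass the threshold (adjusted p = 0.418 with limma). Its level went from 23.4 and 14.1 FPKM in ZR751shLucif to 6.30 and 5.68 FPKM in ZR751shMLL3. Its log2 fold change was −1.17 and −1.89 without ZR751shLucif replicate 1 and 2. COL6A1, a collagen chain, was at 1.47, from 5.15 and 1.44 FPKM in ZR751shLucif to 8.82 and 8.54 FPKM in ZR751shMLL3, and at 2.24 and 0.70 without ZR751shLucif replicate 1 and 2. TGFB1 was at 1.21, and rested on ZR751shLucif replicate 2, without which it was 0.02. Its level was 12.4 FPKM in replicate 1, 1.98 FPKM in replicate 2 and 12.8 and 12.4 FPKM in ZR751shMLL3. ITGB1, a subunit of matrix receptors, was at −0.55. It was −0.08 without ZR751shLucif replicate 1, −1.02 without replicate 2 and −0.21 with the GC trend removed.

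**Figure D3:**
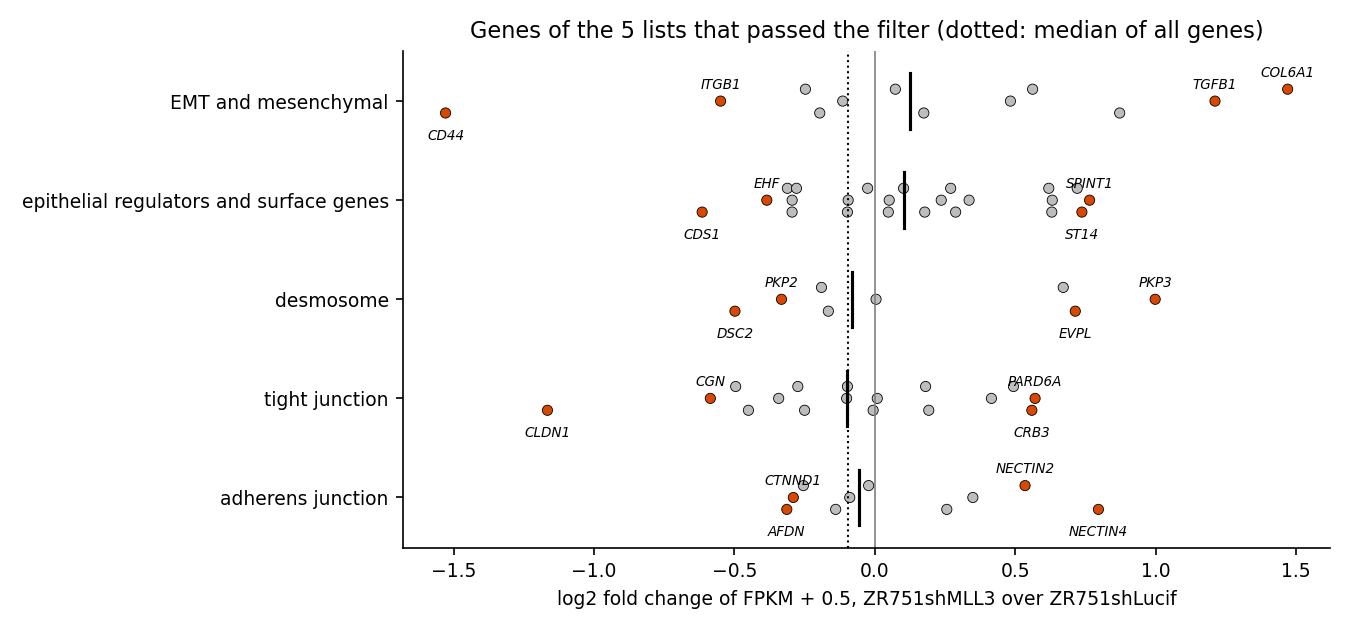
Log2 fold change of FPKM + 0.5 (ZR751shMLL3 over ZR751shLucif) of each gene that passed the filter in the 5 lists, with the median of each list as a black bar and of all genes tested as a dotted line. The 2 highest and 2 lowest of each list are named in orange, and the medians run from −0.10 to 0.12.

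For the chromatin around the genes, the 50000 top-ranked peaks by the authors' signal were taken from each library, so that all libraries gave the same number, and peaks with a summit within 100 kb of the gene body were counted. At rank 50000 the false discovery rate of the H3K4me1 lists was 0.00033 and 9e-05 in ZR751shLucif and 0.0250 and 0.00171 in ZR751shMLL3, so the lists are not equally clean. The windows of CLDN3 and CLDN4 overlap, and peaks in both were counted once in sums.

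H3K4me1 was spread unevenly over the 10 genes, with more peaks around CDH1 than around any other. The sum over all genes was 44 and 47 peaks in ZR751shLucif and 49 and 56 in ZR751shMLL3. The ZR751shMLL3 libraries were the higher, by 7 peaks on average (exact permutation test, two-sided, p = 0.33, the smallest that 2 against 2 libraries allow). Around the epithelial genes there were 33 and 36 peaks in ZR751shLucif and 27 and 33 in ZR751shMLL3, and around the mesenchymal genes 11 and 11 against 22 and 23. The mesenchymal windows cover 1269883 bp, close to the 1274278 bp of the epithelial ones. The mesenchymal counts did not overlap between the lines, while the RNA of these genes was below 0.4 FPKM in every library.

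A shift in the same direction was present around other genes of low RNA. For the 10897 genes that did not pass the filter, the median was 0.500 peaks per 100 kb of window in both ZR751shLucif libraries and 0.904 and 0.774 in ZR751shMLL3. For the 10852 genes that passed, it was 0.999 and 1.18 against 1.28 and 1.07. The mesenchymal difference depended on how many peaks were kept and on the window. With 20000 peaks per library the mesenchymal counts were 7 and 6 in ZR751shLucif and 5 and 8 in ZR751shMLL3, with 100000 peaks they were 25 and 19 against 37 and 38, and at a false discovery rate of 0.01 they were 36 and 34 against 11 and 42. Within 20 kb of the gene body they were 8 and 5 against 12 and 13, and within 100 kb of the start 6 and 7 against 10 and 8. The part of the lists' unequal quality in these counts was not tested.

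**Figure D4:**
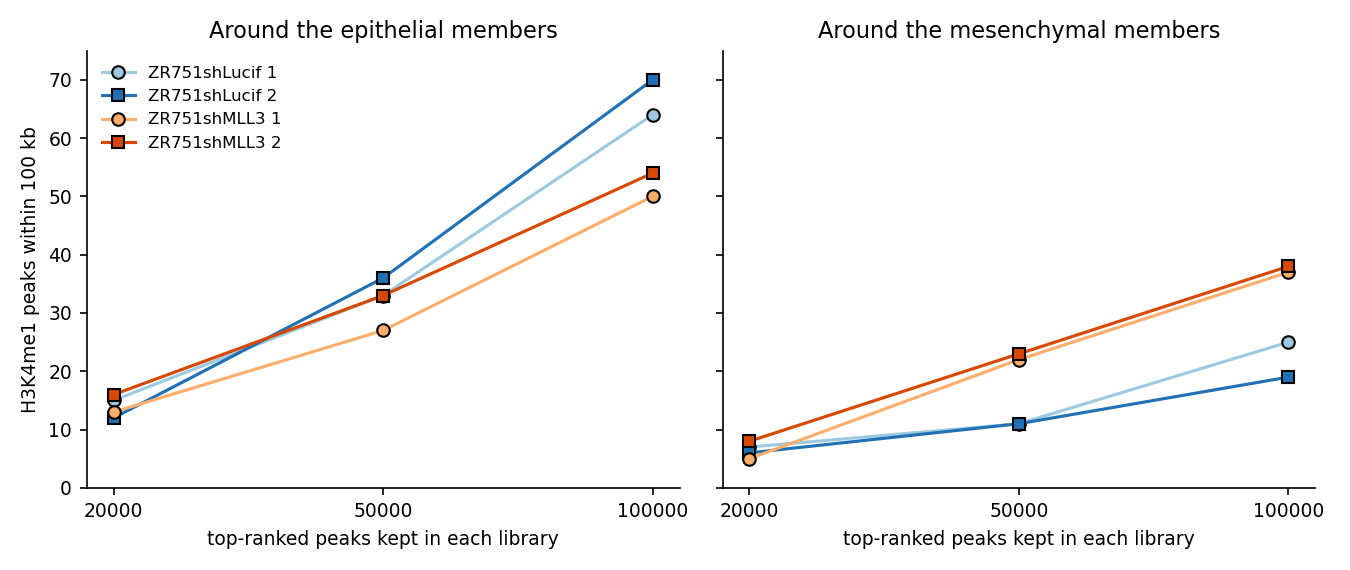
Number of H3K4me1 peaks within 100 kb of the 6 epithelial genes (left) and of the 4 mesenchymal genes (right) in each library, against the number of top-ranked peaks kept. The mesenchymal counts of the lines overlap at 20000 peaks and lie apart at 50000, with 11 and 11 in ZR751shLucif and 22 and 23 in ZR751shMLL3.

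CDH1 had 20 and 25 H3K4me1 peaks in ZR751shLucif and 15 and 22 in ZR751shMLL3, with overlapping groups. Per 100 kb of window this was above 93% of 21749 genes in every library. The peaks merged into 28 sites, of which 16 were inside CDH1 and others in the neighbouring P-cadherin gene CDH3. Of the 28, 4 were among the 50000 of all 4 libraries. The best of these was in CDH1 itself at chr16:68776617-68778857, with its summit 7012 bases after the start. It ranked 3306 and 9743 in ZR751shLucif and 662 and 10138 in ZR751shMLL3, so it stood high in the ranking of each list. Ranks are relative within a library, so a loss of the mark throughout the genome would not show in them. The paper reports less H3K4me1 in the knockdown at most sites common to both lines. Whether the amount of the mark changed at this CDH1 site was not tested. The 300 bases around its summit, chr16:68778057-68778356 on the plus strand, are shown as the best-ranked site of CDH1 shared by all libraries. They lie in an intron, and capitals mark a GC box.
CDH1 intronic site: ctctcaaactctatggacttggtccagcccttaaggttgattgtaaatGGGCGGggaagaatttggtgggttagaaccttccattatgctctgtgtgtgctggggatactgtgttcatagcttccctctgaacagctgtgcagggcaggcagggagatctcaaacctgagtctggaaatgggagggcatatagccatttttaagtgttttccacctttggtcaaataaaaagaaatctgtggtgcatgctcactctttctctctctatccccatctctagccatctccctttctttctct
The sequence held no E-box of the letters searched.

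The nearby claudin genes had few peaks. CLDN3 had 2 and 2 in ZR751shLucif and 2 and 1 in ZR751shMLL3, and CLDN4 had 2 and 3 against 3 and 1. Their strongest shared site, chr7:73244033-73245072, lies just upstream of the CLDN4 promoter shown above, with its summit at position −673 from the RefSeq start, within the longer CLDN4 gene model of GENCODE. It ranked 37153 and 63948 in ZR751shLucif and 33421 and 4620 in ZR751shMLL3. The rank in ZR751shMLL3 replicate 2 was the only one among the first 20000.

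CLDN7 had 1 and 0 H3K4me1 peaks in ZR751shLucif and 0 and 2 in ZR751shMLL3. EPCAM had 5 and 3 against 1 and 4, and OCLN 5 and 5 against 8 and 4. All 3 overlapped between the lines. At EPCAM a site with its summit 808 bases after the start ranked 83694 and 22473 in ZR751shLucif, was not listed in ZR751shMLL3 replicate 1 and ranked 18567 in replicate 2.

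ZEB1 had 4 and 3 H3K4me1 peaks in ZR751shLucif and 10 and 9 in ZR751shMLL3, the largest gap of the 10 genes. CDH2 had 7 and 6 against 9 and 12, and SNAI2 0 and 0 against 2 and 1. These 3 of the 10 genes had more peaks in both ZR751shMLL3 libraries than in both ZR751shLucif libraries, and 0 had fewer. Of 21749 genes counted in the same way, 13.5% had more and 12.2% had fewer. VIM had 0 and 2 against 1 and 1. At a false discovery rate of 0.01 the groups overlapped for ZEB1, CDH2 and SNAI2. ZEB1 then had 7 and 7 peaks in ZR751shLucif and 4 and 13 in ZR751shMLL3. CDH2 had 25 and 20 against 6 and 22 at that rate, and SNAI2 2 and 5 against 1 and 3. The strongest ZEB1 site, chr10:31688603-31690594, lies in an intron and was among the 50000 of all 4 libraries, at ranks 2455 and 12137 in ZR751shLucif and 2788 and 3363 in ZR751shMLL3. It is shown as the mark present in both lines at a gene near 0 FPKM, by the 300 bases around its summit, chr10:31689122-31689421 on the plus strand.
ZEB1 intronic site: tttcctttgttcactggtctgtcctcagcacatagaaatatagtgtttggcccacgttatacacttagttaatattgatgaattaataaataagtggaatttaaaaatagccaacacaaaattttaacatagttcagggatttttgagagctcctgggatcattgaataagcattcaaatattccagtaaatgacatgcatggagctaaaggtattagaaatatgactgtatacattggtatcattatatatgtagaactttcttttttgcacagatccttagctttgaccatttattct
The sequence held neither motif, and 31.7% of its bases were G or C. Of the 28 sites around the mesenchymal genes, 18 were among the 50000 of a ZR751shMLL3 library only, of which 4 were in both, 1 was in ZR751shLucif only and 9 were in both lines. Of the 51 around the epithelial genes, 16 were in ZR751shMLL3 only, 16 in ZR751shLucif only and 19 in both lines. Of those in ZR751shMLL3 only, 0 were in both of its libraries, and of those in ZR751shLucif only, 1 was.

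**Figure D5:**
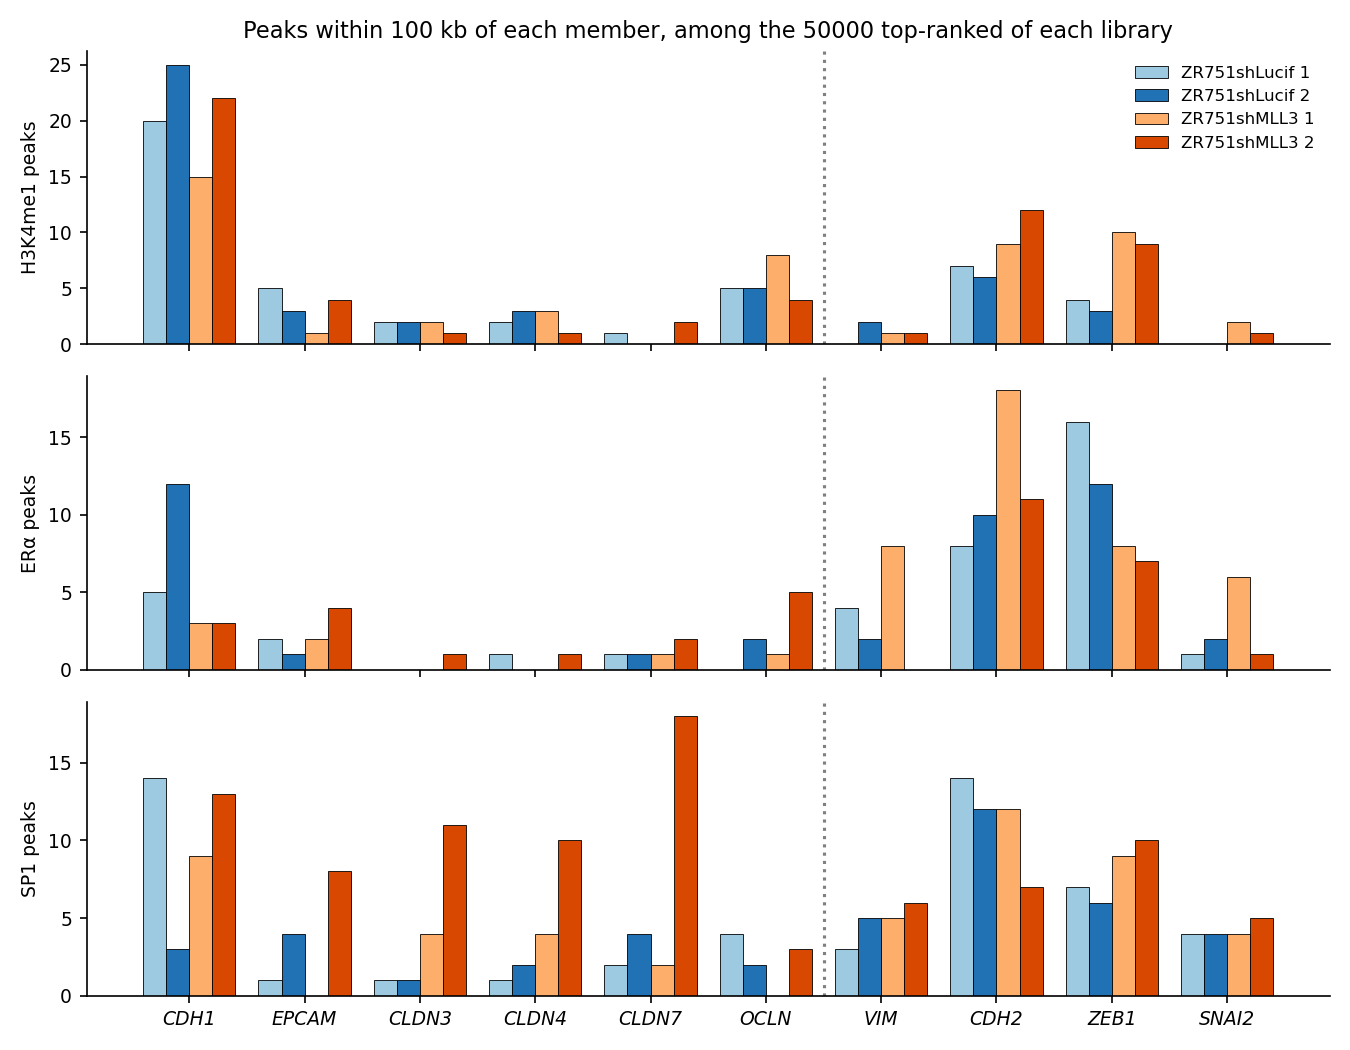
Number of H3K4me1, ERα and SP1 peaks within 100 kb of each gene among the 50000 top-ranked of each library, with 1 bar per library and the epithelial genes left of the dotted line. CDH1 carries the most H3K4me1 peaks, ZEB1 has 3 and 4 in ZR751shLucif and 9 and 10 in ZR751shMLL3, and SP1 replicate 2 of ZR751shMLL3 stands above the others at the claudins.

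Peaks shared by both replicates gave a different picture. At an irreproducible discovery rate (IDR) of 0.1, 31651 H3K4me1 peaks were reproducible genome-wide in ZR751shLucif and 8618 in ZR751shMLL3. Near the 10 genes there were 26 and 9. CDH1 accounted for 17 in ZR751shLucif and 5 in ZR751shMLL3, CDH2 for 4 and 1, ZEB1 for 2 and 1, and OCLN for 1 and 1. The epithelial genes together had 19 and 7, and the mesenchymal genes 7 and 2. The number per line has no replicate, so no test was possible. The genome-wide number was lower in the same direction. With the simpler requirement that a peak be among the 50000 of both replicates the counts were 16 and 16, with CDH1 at 11 and 5 and ZEB1 at 2 and 6. The epithelial genes had 11 and 7 of these and the mesenchymal genes 5 and 9. Genome-wide there were 20669 in ZR751shLucif and 13931 in ZR751shMLL3.

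Among the 50000 top-ranked, ERα peaks were fewer around the epithelial than around the mesenchymal genes, with 9 and 16 against 29 and 26 in ZR751shLucif and 7 and 15 against 40 and 19 in ZR751shMLL3. In ZR751shMLL3 replicate 2 this order turned, to 9 against 4 with 20000 peaks, 12 against 10 at a false discovery rate of 0.01 and 11 against 8 within 100 kb of the start. The sum over all genes was 38 and 42 in ZR751shLucif and 47 and 34 in ZR751shMLL3 (exact permutation test, two-sided, p = 1). CDH1 had 5 and 12 ERα peaks in ZR751shLucif and 3 and 3 in ZR751shMLL3, and ZEB1 16 and 12 against 8 and 7. These 2 of 10 genes were lower in both ZR751shMLL3 libraries, and CDH2, with 8 and 10 against 18 and 11, was higher. The shares of all genes were 10.3% and 8.35%. The false discovery rate at rank 50000 was 0.00627 to 0.234 over the 4 ERα lists.

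SP1 peaks numbered 50 and 42 in ZR751shLucif and 45 and 82 in ZR751shMLL3 (exact permutation test, two-sided, p = 0.667). Among the 50000 top-ranked peaks the difference rested on ZR751shMLL3 replicate 2, and without it the mean was 1 peak lower than in ZR751shLucif. At a false discovery rate of 0.01 there were 0 and 0 peaks in ZR751shLucif and 184 and 30 in ZR751shMLL3, with replicate 1 the higher one. The whole SP1 lists of ZR751shMLL3 replicates 1 and 2 held 204178 and 12065 peaks at that rate. Among the 50000 top-ranked, ZR751shMLL3 replicate 2 had 11 peaks around CLDN3, 10 around CLDN4 and 18 around CLDN7, where the other libraries had 1 to 4. Among all genes past the filter it also had a median of 2.43 SP1 peaks per 100 kb, against 0.963 to 1.40 in the others. CLDN3, CLDN4 and ZEB1 had more peaks in both ZR751shMLL3 libraries and 0 genes had fewer, against 16.1% and 6.3% of all genes. The CLDN3 and CLDN4 windows overlap, so a peak in both counts for each gene, and their counts are not separate. At the promoters shown above, SP1 replicate 2 of ZR751shMLL3 had a peak of rank 3666 at the CLDN7 start and of rank 3942 at the CLDN4 start, while in the other libraries the best peak within 1 kb of the CLDN4 start ranked from 56853 to 135282 and CLDN7 had none. At the annotated CDH1 start, an SP1 peak ranked 2926 in ZR751shLucif replicate 1 and 246 in ZR751shMLL3 replicate 2, and none was listed within 1 kb in the other libraries. The SP1 lists of ZR751shLucif held 0 peaks at a false discovery rate of 0.01, so the ranks there fall among peaks with a high false discovery rate.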

How the data were processed

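RNA-seq and H3K4me1, ERα and SP1 ChIP-seq were done with 2 libraries per cell line. The deposited RNA values are FPKM per RefSeq entry, made by the authors with TopHat2 2.0.13, Cufflinks 2.2.1 and Cuffnorm 2.2.1 on hg19. For each ChIP-seq library the authors deposited a relaxed peak list with the SPP signal and the −log10 of the false discovery rate, after alignment with BWA 0.7.5a-r405 and Picard 1.126, against 1 input library per line. The signal has its own scale in each list and was used for ranks only. Versions are from the submitters' processing notes.

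The test across genes was limma 3.58.1 (R 4.3.3) with Benjamini-Hochberg adjustment, on log2(FPKM + 0.5) of the 11134 genes whose mean exceeded 1. A fold change on this scale understates that of low genes. Symbols came from RefSeq, with 22894 of 23500 entries matched, and 1 row without a name was left out. GC content was known for 97.5% of the genes tested. Peak summits within 100 kb of GENCODE genes on GRCh37 were counted with Python, and peak sums were compared with exact permutation tests. IDR came from a Gaussian copula mixture written for this purpose, on replicate peaks overlapping by 1 bp. The limma and IDR steps were tested on simulated data.

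The genes named were the 10 members, KMT2C and the 2 highest and 2 lowest of each list. The members and lists were chosen with earlier results of these data known. The authors removed surrogate variables of a number not given in the sources used here, and none was removed here. The 2 input libraries were not analysed here. The alternatives were pseudocounts, filters, scalings, GC and length trends, a replicate block, a residual component, other peak thresholds and windows, and each library left out.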

Additional observations from a re-analysis of the deposited data

How the results depend on the processing

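Pseudocounts of 0.1 and 1, a filter above 3, median centring, quantile normalization and removal of GC or length trends left the gene counts at 0 higher and 1 lower, and no filter gave 0 lower. Replicate numbers did not pair the RNA libraries, whose same-numbered deviations correlated at 0.0374 across genes. With a replicate block, 14 genes were higher and 19 lower, and no member passed. With 1 residual component removed, counts were 1426 higher and 2210 lower of 11134 genes tested. EPCAM, CLDN3 and CLDN4 passed at adjusted p of 0.0321, 0.0134 and 0.0144 with limma. In the adherens junction, tight junction, desmosome, epithelial and EMT lists it called 5, 2, 5, 8 and 7 genes. The genes tested in these lists numbered 10, 17, 8, 23 and 12. That removal takes residual spread away by construction. Leaving out 1 library gave 0 to 353 higher and 1 to 916 lower genes, the most without ZR751shLucif replicate 2, and no member passed.

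The median log2 fold change of the 6 epithelial genes was −0.02. It was 0.058 with median centring, 0.12 with quantile normalization, 0.19 with the GC trend removed, 0.14 with GC and length trends removed, and −0.048 to 0.15 with 1 library left out. That of the 4 mesenchymal genes was −0.03, and −0.12 to 0.015 with 1 library left out. Signs turned for EPCAM with GC and length trends removed (0.03), for OCLN with the GC trend (0.17) or both (0.089) removed, and on leaving out 1 library for OCLN (−0.46 to 0.14) and CLDN7 (−0.35 to 0.058), with the positive values without ZR751shLucif replicate 2 and replicate 1.

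For all 10 genes, the mean difference in H3K4me1 peaks was 7. It was 1 with 20000 peaks per library, 0.5 with 100000, −2 within 100 kb of the start and 3.5 to 10.5 on leaving out 1 library. At a false discovery rate of 0.01 it was −78.5. The whole H3K4me1 lists held 141158 and 192201 peaks at that rate in ZR751shLucif, and 28599 and 109586 in ZR751shMLL3. For ERα the mean difference was 0.5, and −27.5 at that rate and −5 within 20 kb of the gene, with −6 to 7 on leaving out 1 library. For SP1 it was 17.5, and 107 at that rate, with −1 to 36 on leaving out 1 library. Reproducible H3K4me1 peaks near the genes in ZR751shMLL3 minus ZR751shLucif numbered −17, and −32, −13, 0 and −59 at an IDR of 0.25, an IDR of 0.05, among the 50000 of both replicates and at a false discovery rate of 0.01 in both. Stopping the mixture after 50 rounds left 34 and 7 such peaks in ZR751shLucif and ZR751shMLL3. The causes were not tested. The counts around the epithelial and mesenchymal genes apart, the stopped mixture and the lists under other settings were alternatives chosen after seeing the data.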

Other observations

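Of the EMT transcription factors in the list, TWIST1 and TCF3 passed the filter. TWIST1 had 8.85 and 10.8 FPKM in ZR751shLucif, against 9.85 and 6.75 FPKM in ZR751shMLL3, with overlapping groups. ZEB2 and FOXC2 were listed at 0 in all 4 libraries. SNAI1 had 2.50 and 1.05 FPKM in ZR751shLucif, against 1.15 and 0.920 FPKM in ZR751shMLL3. TWIST2 had 0.169 and 0.0976 FPKM in ZR751shLucif, against 0.649 and 1.04 FPKM in ZR751shMLL3. TCF4 had 0.00925 and 0.0171 against 0.0583 and 0.0549 FPKM, and PRRX1 was at 0.0808 FPKM or less. ITGA5, the fibronectin receptor subunit, had 4.59 and 5.65 FPKM in ZR751shLucif, against 11.4 and 8.30 FPKM in ZR751shMLL3 (log2 fold change 0.87, adjusted p = 0.595 with limma), while FN1, its fibronectin ligand, was at 2.39 and 1.37 against 0.723 and 0.938 FPKM. These genes were named after their values were seen.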
